A study of Mus musculus with 6 samples.

Results

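The *Hox* cluster genes were followed in cultured mouse forebrain progenitors: every locus of the deposited table was taken whose gene name field holds a symbol made of *Hoxa*, *Hoxb*, *Hoxc* or *Hoxd* and a number. The rule found 39 protein-coding genes, of 53060 genes or merged loci in the table, with 11 in *Hoxa* on chromosome 6, 10 in *Hoxb* on chromosome 11, 9 in *Hoxc* on chromosome 15 and 9 in *Hoxd* on chromosome 2. The table joins transcripts that an assembler merged, so the 39 genes lie in 26 loci: 19 genes have a locus of their own and 20 share 7 loci, within which the counts of single genes cannot be separated. RNA-seq was done on 3 KO and 3 WT libraries of neural progenitor cells (NPCs), to ask how the transcriptome differs where the ubiquitin ligase adaptor ARMC5, which acts on RNA polymerase II, is missing. KO NPCs were homozygous for the *Armc5* null allele and WT NPCs carried the intact gene. All 6 cultures came from the ganglionic eminences of e13.5 fetuses. Cells were kept as floating neurospheres in medium with 20 ng/ml EGF, and RNA was taken at passage 2. The labels name the strain as 129 sv X CD1 and the study's methods name it as CD1 x C57BL/6 F1. The labels and the methods describe dissection of the ganglionic eminences after the brain was parted from the cord, whereas the results text of the study speaks of brains and spinal cords as the source.

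*Hox* genes encode homeodomain transcription factors that give cells their position along the head-to-tail axis. In each cluster the genes are ordered by where they act, with the low-numbered genes at the 3′ end used from the hindbrain down and the high-numbered genes at the 5′ end used in the trunk, limbs and tail. The forebrain lies ahead of the domain of *Hox* expression, where Polycomb complexes keep the clusters silent, and tissue taken from the hindbrain or the cord largely keeps its *Hox* pattern in culture.

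*Hox* paralogs resemble each other most in the homeobox, which raises the question of whether reads can be told apart. The 30 bases that encode the start of the DNA-recognition helix are shown for genes of detected loci (*Hoxa2*, *Hoxb2*, *Hoxa3*, *Hoxb3*), for *Hoxd3*, from a merged locus that was not detected, and for the 2 genes with 0 counts in every library (*Hoxc12*, *Hoxd9*). Capitals mark bases that differ from the commonest base at that position over the 39 genes, and the bases come from GENCODE vM21 transcripts on GRCm38.
Hoxa2, chr6:52163420-52163449, minus strand: tggttTcagaaccggagAatgaagCaTaag
Hoxb2, chr11:96353126-96353155, plus strand: tggttccagaaccgACgCatgaaACaCaag
Hoxa3, chr6:52170528-52170557, minus strand: tggttccagaaccgCCgCatgaagtaCaag
Hoxb3, chr11:96345809-96345838, plus strand: tggttccagaaccgTCgCatgaagtaCaag
Hoxd3, chr2:74746501-74746530, plus strand: tggttccagaaccgTCgCatgaagtaCaag
Hoxc12, chr15:102938449-102938478, plus strand: tggttccagaaccggagAatgaaAAagaaA
Hoxd9, chr2:74699356-74699385, plus strand: tggttccagaaccgTaggatgaaAATgaaA
*Hoxb3* and *Hoxd3* were identical over these bases although they lie on different chromosomes, and both belong to merged loci. Pairs with the same number shared a median of 26.5 of the 30 bases (42 pairs, range 22 to 30) and pairs with different numbers a median of 23 (699 pairs, range 18 to 30). The identity does not extend far: the longest run shared by *Hox* transcripts of different clusters was 52 bases, between *Hoxa6* and *Hoxb4*. None of 100607 distinct 100-base stretches of the 39 genes' transcripts was found in a *Hox* transcript of another cluster, and 0 were found in a transcript of a gene elsewhere in the genome. Among annotated transcripts, a whole 100-base read from a *Hox* transcript can therefore be placed in or near its cluster by exact sequence. Introns, intergenic sequence, the reverse strand and inexact matches were not searched.

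Named genes held between 52995791 counts in KO NPC 3 and 85170379 counts in KO NPC 1. Low counts in the table cluster at 3, 6, 9, 11 and 14 and on up to 25, with a mean spacing of 2.75, so a count of 3 was treated as about 1 sequenced fragment. A count of 0 was read as allowing up to 3 fragments, that is 8.25 counts, which is between 0.0995 and 0.140 CPM (counts scaled to the TMM-adjusted size of each library) in these libraries. This covers counting error only. *Armc5* had 84, 119 and 43 counts in KO NPCs, against 1966, 2114 and 1797 counts in WT NPCs, so the libraries match their genotype labels. KO NPC 3 stands apart from the other 5 libraries by glial genes such as *Gfap*, at 275.9 CPM there, with WT NPC 3 next at 47.9 CPM and the other 4 libraries between 0.157 and 1.54 CPM. Of 12 neural progenitor genes listed, all 12 were above 1 CPM in every library. Of 21 telencephalon and ganglionic eminence genes, 20 passed the expression filter and 13 were above 1 CPM in every library, and of 23 hindbrain and spinal cord genes, 9 passed it and 4 were above 1 CPM in every library.

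A *Hox* locus was called detected when it passed edgeR's expression filter, which asks for about 10 counts in at least 3 libraries, a trace when it had counts but did not pass, and at 0 when it had no count in any library. Of the 26 loci, 6 were detected, 18 were traces and 2 were at 0. Thus 23.1% of the *Hox* loci passed the filter, against 35.9% of all genes and merged loci and 65.4% of the 20691 that are protein-coding. By cluster, 3 of 7 *Hoxa* loci (with 7 of 11 genes), 2 of 6 *Hoxb* loci (5 of 10 genes), 1 of 6 *Hoxc* loci (4 of 9 genes) and 0 of 7 *Hoxd* loci were detected. The number of detected genes is an upper limit, since a merged locus passes even if only 1 of its genes is transcribed. The levels were low throughout: a single locus, that of *Hoxa2*, *Hoxa3*, *Hoxa5* and *Hoxa6*, reached 1 CPM in 3 libraries, and a single locus, that of *Hoxc4*, *Hoxc5*, *Hoxc6* and *Hoxc10*, had 10 or more counts in all 6. The number of detected loci became 10 when KO NPC 1, KO NPC 2, WT NPC 1 or WT NPC 2 was left out, because 2 libraries then suffice, and the loci of *Hoxb8* and *Hoxb9*, *Hoxd1*, *Hoxd3* and *Hoxd4*, and *Hoxd10* and *Hoxd11* were added each time. It stayed at 6 without KO NPC 3 or without WT NPC 3.

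**Figure D1:**
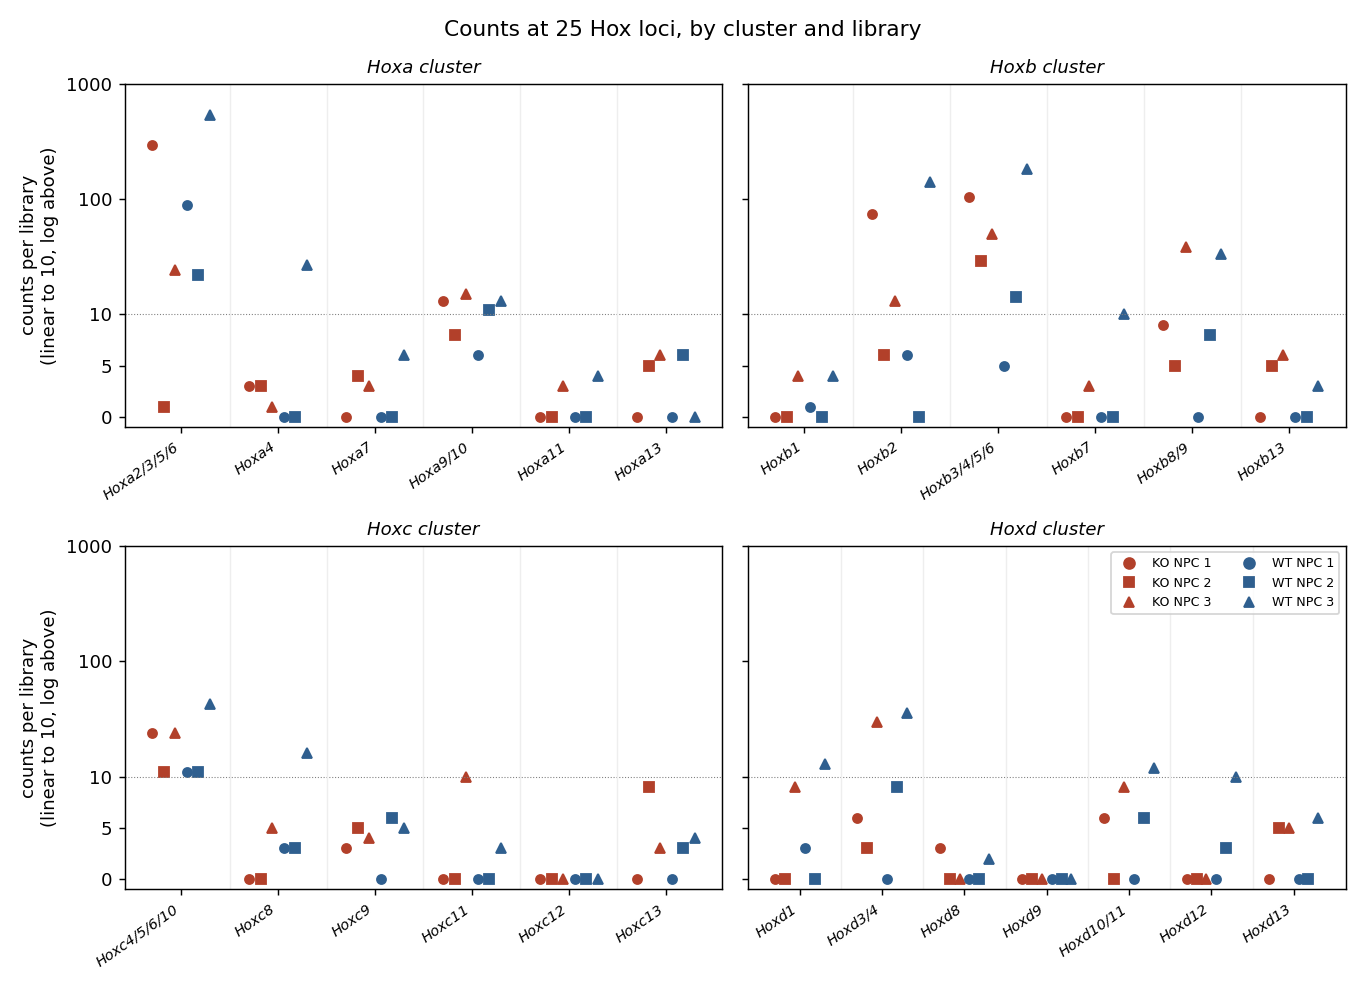
Counts per library at 25 *Hox* loci, with 1 panel per cluster, loci from low to high gene number, KO libraries (red) left of WT libraries (blue), and a vertical axis that is linear to 10 (dotted line) and logarithmic above. The loci holding *Hoxa2* and *Hoxb2* reach from 0 or 1 count to more than 100, and *Hoxc12* and *Hoxd9* sit at 0 in every library.

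In *Hoxa*, most counts lay toward the 3′ end. The merged locus of *Hoxa2*, *Hoxa3*, *Hoxa5* and *Hoxa6* (chromosome 6, 52162417 to 52213529) had 291, 1 and 24 counts in KO NPC 1, 2 and 3, against 89, 22 and 536 counts in WT NPC 1, 2 and 3. *Hoxa2* patterns rhombomeres of the hindbrain and the neural crest of the branchial arches. WT NPC 3 alone held 55.7% of the 963 counts of this locus and KO NPC 1 held 30.2%. The merged locus of *Hoxa9*, *Hoxa10* and the microRNA *Mir196b*, 5′ genes known from the trunk and from blood progenitors, was low and even, with 13, 8 and 15 counts in KO NPCs, against 6, 11 and 13 counts in WT NPCs.

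Other *Hoxa* loci were traces. *Hoxa4* had 3, 3 and 1 counts in KO NPCs, against 0, 0 and 27 counts in WT NPCs, so WT NPC 3 held 79.4% of its counts. *Hoxa4* lies within the span of the merged *Hoxa2* to *Hoxa6* locus, which is also highest in WT NPC 3. *Hoxa7*, *Hoxa11* and *Hoxa13* had totals of 13, 7 and 17 counts over the 6 libraries and never more than 6 counts in a library.

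In *Hoxb*, the low-numbered genes were again those detected, but not the lowest. *Hoxb2*, which acts in the hindbrain and cranial motor neurons (chromosome 11, 96350525 to 96354012), had 74, 6 and 13 counts in KO NPCs, against 6, 0 and 140 counts in WT NPCs. The merged locus of *Hoxb3*, *Hoxb4*, *Hoxb5* and *Hoxb6* had 103, 29 and 50 counts in KO NPCs, against 5, 14 and 182 counts in WT NPCs. At both loci KO NPC 1 and WT NPC 3 were the 2 highest libraries, and WT NPC 1 was at 6 counts or fewer. The *Hoxb3* to *Hoxb6* locus spans 96292214 to 96679056, well past the 3′ end of the cluster into *Skap1*, a gene with 22 counts or fewer in each library. *Hoxb1*, which lies 3′ of *Hoxb2* and marks rhombomere 4, had 0, 0 and 4 counts in KO NPCs, against 1, 0 and 4 counts in WT NPCs.

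Further 5′ in *Hoxb*, the merged locus of *Hoxb8* and *Hoxb9*, trunk genes, had 9, 5 and 38 counts in KO NPCs, against 0, 8 and 33 counts in WT NPCs. It was highest in the 2 libraries numbered 3. *Hoxb7* had 0, 0 and 3 counts in KO NPCs, against 0, 0 and 10 counts in WT NPCs. *Hoxb13*, a gene of the tail end of the body, had 14 counts in all and at most 6 in a library.

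In *Hoxc*, which lacks paralogs numbered 1 to 3, the merged locus of *Hoxc4*, *Hoxc5*, *Hoxc6* and *Hoxc10*, genes of the cervical to lumbar cord, was detected. It had 24, 11 and 24 counts in KO NPCs, against 11, 11 and 43 counts in WT NPCs. It was the most even of the detected loci that held over 100 counts, and WT NPC 3 was highest. *Hoxc8*, a thoracic gene, had 0, 0 and 5 counts in KO NPCs, against 3, 3 and 16 counts in WT NPCs. *Hoxc11* had 0, 0 and 10 counts in KO NPCs, against 0, 0 and 3 counts in WT NPCs. *Hoxc9* and *Hoxc13* had 23 and 19 counts in all, spread over 5 and 4 libraries, with at most 9 counts in a library. *Hoxc12* was at 0 in all 6 libraries.

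No *Hoxd* locus was detected with all 6 libraries. *Hoxd1* had 0, 0 and 9 counts in KO NPCs, against 3, 0 and 13 counts in WT NPCs. The merged locus of *Hoxd3* and *Hoxd4*, hindbrain and cervical genes, had 6, 3 and 30 counts in KO NPCs, against 0, 9 and 36 counts in WT NPCs. The merged locus of *Hoxd10* and *Hoxd11*, limb and lumbar genes, had 6, 0 and 9 counts in KO NPCs, against 0, 6 and 12 counts in WT NPCs. All 3 loci were highest in the libraries numbered 3. *Hoxd12* had 0 counts in all 3 KO NPCs, against 0, 3 and 10 counts in WT NPCs, and only the 10 counts of WT NPC 3 exceed what a count of 0 allows. *Hoxd8* and *Hoxd13* had 5 and 16 counts in all, and *Hoxd9* was at 0 in all 6 libraries.

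Promoter sequences of detected and trace genes were alike in CG content. RefSeq windows on GRCm38.p6, from 250 bases before to 50 bases after a gene's start, were held for 22 of the 39 genes (24 windows). They had a median of 14.5 CG dinucleotides, the pair of letters that DNA methylation acts on, against a median of 7 in all 32851 windows. The 9 windows of genes in detected loci had a median of 14 and the 14 windows of trace genes also had a median of 14. The windows of *Hoxa3*, from the locus with most counts, and *Hoxd9*, at 0 in every library, are shown with each CG in capitals. Each holds 20, more than 73.5% of all windows.
Hoxa3, chr6:52213018-52213317, minus strand: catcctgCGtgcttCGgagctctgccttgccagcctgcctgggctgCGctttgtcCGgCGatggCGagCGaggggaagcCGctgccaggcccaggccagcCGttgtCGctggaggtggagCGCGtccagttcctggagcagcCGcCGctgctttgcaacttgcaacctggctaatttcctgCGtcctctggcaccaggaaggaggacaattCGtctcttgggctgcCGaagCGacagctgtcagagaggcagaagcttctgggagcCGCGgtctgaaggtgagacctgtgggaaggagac
Hoxd9, chr2:74697513-74697812, plus strand: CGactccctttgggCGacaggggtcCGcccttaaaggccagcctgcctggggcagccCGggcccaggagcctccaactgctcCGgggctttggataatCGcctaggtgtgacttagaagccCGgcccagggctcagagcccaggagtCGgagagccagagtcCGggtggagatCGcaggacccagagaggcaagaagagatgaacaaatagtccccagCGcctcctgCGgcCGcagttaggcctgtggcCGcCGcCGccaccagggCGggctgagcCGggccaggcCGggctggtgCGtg

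Levels of different genes can be compared only per length. Dividing CPM by the exon length of the locus in kilobases gave RPKM, and over the 6 libraries *Hoxb2* had a mean of 0.159 RPKM and the *Hoxa2* to *Hoxa6* locus a mean of 0.112 RPKM. *Hoxa4*, a trace by counts, was at 0.0511 RPKM and the *Hoxb3* to *Hoxb6* locus at 0.0378 RPKM. The spread over libraries is larger than these steps, so neighbours in this order cannot be ranked. The *Hoxb3* to *Hoxb6* locus, the merged *Hoxa9* and *Hoxa10* locus at 0.0181 RPKM and the merged *Hoxc4* to *Hoxc10* locus at 0.0219 RPKM, all detected, lay within the range of the 18 traces, which was 0.00397 to 0.0511 RPKM. These 3 loci are long, and a long locus passes a filter on counts at a lower level per length.

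The libraries differed widely in *Hox* content within each genotype. The 26 loci summed to 695, 99 and 303 counts in KO NPC 1, 2 and 3, against 184, 110 and 1154 counts in WT NPC 1, 2 and 3. In CPM the sums were 8.38, 1.36 and 5.14 in KO NPCs, against 2.92, 1.54 and 16.8 in WT NPCs. *Hoxa* held 55.5% of the 2545 counts, *Hoxb* 29.5%, *Hoxc* 8.09% and *Hoxd* 6.92%, but WT NPC 3 alone gave 1154 of these counts and the order of the clusters differed between libraries. *Hoxa* held the most counts in KO NPC 1 and in all 3 WT NPCs, and *Hoxb* held the most in KO NPC 2 and 3. *Hoxb* and *Hoxc* were too close to be ordered in WT NPC 1 (12 and 14 counts) and WT NPC 2 (22 and 23 counts). The 3 loci toward the 3′ ends of *Hoxa* and *Hoxb* that hold *Hoxa2*, *Hoxb2* and *Hoxb3*, grouped after their values were seen, held 62.3% of the counts. They made up 67.3%, 36.4% and 28.7% of the *Hox* counts in KO NPC 1, 2 and 3, against 54.4%, 32.7% and 74.4% in WT NPC 1, 2 and 3. Together they reached 5.64, 0.495 and 1.48 CPM in KO NPCs, against 1.58, 0.503 and 12.5 CPM in WT NPCs. The libraries numbered 2 were therefore the lowest of their genotype in all *Hox* loci together and in these 3 loci.

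**Figure D2:**
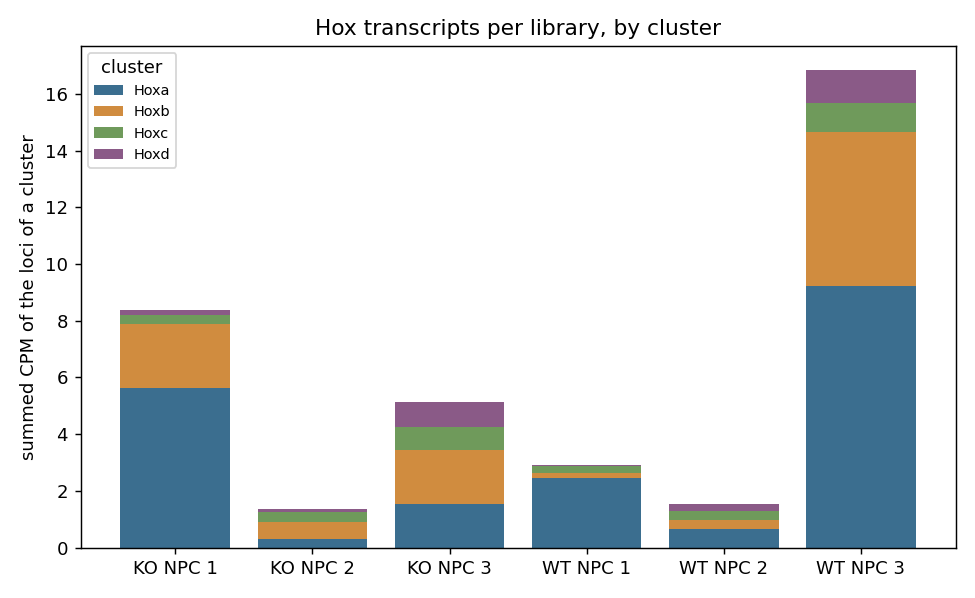
Summed CPM of the *Hox* loci of each cluster (stacked bars) in each of the 3 KO and 3 WT libraries. WT NPC 3 reaches 16.8 CPM and KO NPC 1 reaches 8.38 CPM, mostly from *Hoxa* and *Hoxb*, and both libraries numbered 2 stay under 1.6 CPM.

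The trace loci followed another order. Of the 18 trace loci, 6, 9 and 16 had a count in KO NPC 1, 2 and 3, against 3, 8 and 17 in WT NPC 1, 2 and 3. The traces summed to 30, 44 and 139 counts in KO NPCs, against 7, 44 and 194 counts in WT NPCs, so both libraries numbered 3 were highest. Genes at 0 were fewer in the same 2 libraries across the whole table: 48.2%, 47.5% and 36.1% of all genes were at 0 in KO NPC 1, 2 and 3, against 52.5%, 45.8% and 34.6% in WT NPC 1, 2 and 3. The part of this general difference in the *Hox* traces was not tested.

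Genes that mark brain regions also varied between libraries. *En2*, a gene of the midbrain and anterior hindbrain, was at 25.3, 6.29 and 12.1 CPM in KO NPCs, against 34.6, 5.49 and 14.2 CPM in WT NPCs. *Irx3*, expressed from the diencephalon back through the cord, was at 14.7, 7.24 and 12.2 CPM in KO NPCs, against 15.7, 3.27 and 8.47 CPM in WT NPCs. In both genotypes the library numbered 2 was the lowest for these genes, as it was for the summed 3′ *Hoxa* and *Hoxb* loci. Among KO NPCs, KO NPC 1 was the highest both in *Hox* transcripts and in *En2*. Among WT NPCs the highest libraries were not the same: WT NPC 3 had the most *Hox* transcripts and WT NPC 1 the most *En2*. *Gbx2*, of the anterior hindbrain, was at 3.34, 1.86 and 0.916 CPM in KO NPCs, against 4.03, 0.503 and 1.34 CPM in WT NPCs. *Dlx2*, of ganglionic eminence progenitors, was at 3.27, 8.59 and 70.2 CPM in KO NPCs, against 0.222, 16.4 and 31.0 CPM in WT NPCs.

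Other defining genes of the hindbrain and cord were near 0. *Cdx1*, *Cdx2* and *Cdx4*, which switch on trunk *Hox* genes in the early embryo, stayed at or under 0.119 CPM in every library, and *Lbx1*, *Mnx1* and *Lhx3*, of hindbrain and cord neurons, at or under 0.255 CPM. The summed level of the 23 hindbrain and spinal cord genes was 82.4, 48.0 and 61.0 CPM in KO NPCs, against 100.2, 54.1 and 50.4 CPM in WT NPCs, with 5, 8 and 4 of them at 0 in KO NPCs, against 10, 9 and 3 in WT NPCs. Neural crest genes gave no shared pattern, with *Foxd3* at or under 0.0509 CPM and *Tfap2a* at 1.35, 0.976 and 0.390 CPM in KO NPCs, against 2.28, 0.405 and 2.70 CPM in WT NPCs. Of 10 fibroblast and meninges genes 6 passed the filter, with a summed level of 31.9, 31.3 and 119.5 CPM in KO NPCs, against 18.7, 34.1 and 42.1 CPM in WT NPCs. Nearly all of the sum in KO NPC 3 came from *Pdgfrb*, at 58.5 CPM, and *Prrx1*, at 58.1 CPM, so it does not stand for the whole list. Of 7 microglia and macrophage genes 0 passed the filter. In bulk RNA, fewer *Hox*-expressing cells and less *Hox* RNA per cell cannot be told apart, and the part of cells from other brain regions in the *Hox* counts was not tested.

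**Figure D3:**
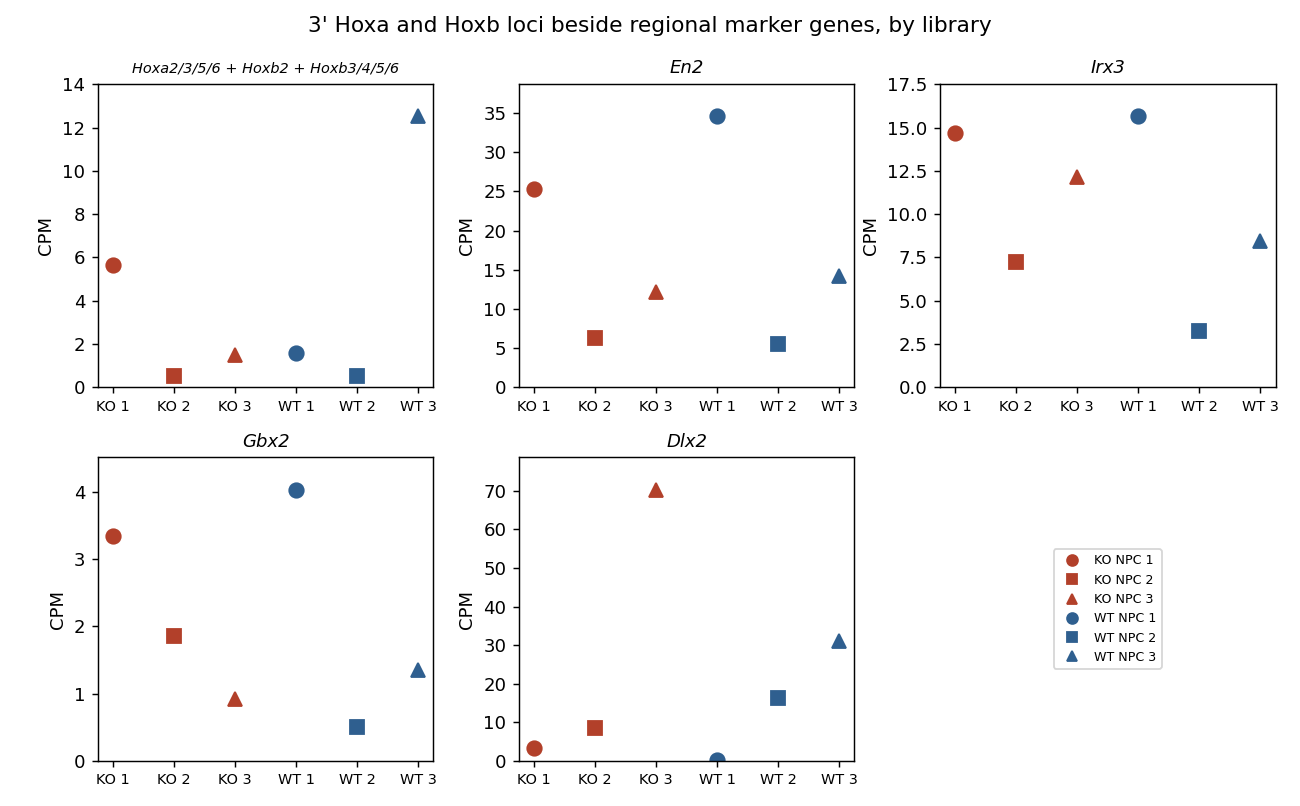
CPM in each library (KO NPCs red, WT NPCs blue, symbols by replicate number) of the 3 summed 3′ *Hoxa* and *Hoxb* loci and of 4 regional marker genes. The libraries numbered 2 are lowest in their genotype for the *Hox* sum, *En2* and *Irx3*, and KO NPC 3 is highest for *Dlx2*.

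Noncoding transcripts within the clusters were counted as loci of their own. Between the outermost *Hox* genes lie 39 further loci (leaving out a merged locus of *Itga5* and *Cbx5* that reaches into *Hoxc*), of which 32 are named, 20 lie on the strand opposite to the *Hox* genes and 11 were at 0. *Hotairm1*, a noncoding RNA toward the 3′ end of *Hoxa* that is read in the other direction, had 196, 14 and 68 counts in KO NPCs, against 70, 20 and 59 counts in WT NPCs. The libraries numbered 2 were lowest and KO NPC 1 was highest. *Hoxaas2*, antisense to *Hoxa3*, had 49, 3 and 9 counts in KO NPCs, against 9, 0 and 23 counts in WT NPCs. *Hoxb3os*, antisense over *Hoxb2* and *Hoxb3*, had 34, 0 and 17 counts in KO NPCs, against 9, 0 and 27 counts in WT NPCs. These antisense loci, too, were lowest in the libraries numbered 2. The libraries keep strand, but no source used here says whether the counting did, so reads of a gene and its antisense partner may not be separated.

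*Gm11539*, a predicted gene between *Hoxb13* and *Hoxb9*, had another pattern, with 224, 288 and 91 counts in KO NPCs, against 156, 272 and 295 counts in WT NPCs. It was the only neighbour within a cluster with more than 20 counts in a library numbered 2. The noncoding RNAs *Hottip*, *Hotair* and *Haglr*, known as regulators of *Hox* genes, were near 0, unlike *Hotairm1*. *Hottip*, just 5′ of *Hoxa*, had at most 10 counts in a library, *Hotair*, in *Hoxc*, at most 3, and *Haglr*, in *Hoxd*, at most 11. *Halr1*, a noncoding gene near the 3′ end of *Hoxa*, had 6, 3 and 3 counts in KO NPCs, against 21, 5 and 19 counts in WT NPCs, with ranges that overlap. An unnamed locus that overlaps *Hoxc4* (chromosome 15, 103019971 to 103030398) had 11, 9 and 11 counts in KO NPCs, against 2, 11 and 49 counts in WT NPCs, and like the merged *Hoxc4* locus was highest in WT NPC 3. Just outside the clusters, the *Evx1* and *Evx2* homeobox genes had at most 6 and 12 counts in a library, while 9 of the 13 flanking genes found passed the filter, with means between 15 CPM for *Smug1* and 67.7 CPM for *Hibadh*. The 4 flanking genes that did not pass were *Evx1*, *Evx2*, *Skap1* and *Ttll6*.

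The clusters also hold microRNAs that target *Hox* transcripts. Their precursors were at 0 in every library for *Mir10a*, *Mir10b*, *Mir196a-2* and *Mir615*, and *Mir196a-1* had 1 count in WT NPC 1, while *Mir196b* is merged with *Hoxa9* and *Hoxa10*. These libraries are not built to catch mature microRNAs, so this says nothing of their levels. The mature 5p forms, from RefSeq on GRCm38.p6, are shown because members in different clusters share a seed (bases 2 to 8, in capitals), 1 seed for the miR-10 pair and another for the miR-196 pair.
mmu-miR-10a-5p, Hoxb cluster: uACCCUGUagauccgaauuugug
mmu-miR-10b-5p, Hoxd cluster: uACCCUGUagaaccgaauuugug
mmu-miR-196a-5p, Hoxb and Hoxc clusters: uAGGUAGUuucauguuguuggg
mmu-miR-196b-5p, Hoxa cluster: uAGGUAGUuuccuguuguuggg

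KO and WT NPCs did not differ beyond the spread between libraries at any detected *Hox* locus. The *Hoxa2* to *Hoxa6* locus averaged 1.31 ± 1.92 CPM in KO NPCs and 3.18 ± 4.06 CPM in WT NPCs (SD, n = 3 each), a log2 fold change, KO over WT, of -1.27 (95% interval -5.37 to 2.82). The *Hoxa9* and *Hoxa10* locus averaged 0.174 ± 0.0738 CPM in KO NPCs and 0.146 ± 0.0478 CPM in WT NPCs (SD, n = 3 each), a log2 fold change of 0.24 (-1.09 to 1.56). At the *Hoxa2* to *Hoxa6* locus the SD exceeded the mean in both groups, whereas the low *Hoxa9* and *Hoxa10* locus was steadier.

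*Hoxb2* averaged 0.398 ± 0.433 CPM in KO NPCs and 0.713 ± 1.15 CPM in WT NPCs (SD, n = 3 each), a log2 fold change of -0.83 (-4.99 to 3.34). The *Hoxb3* to *Hoxb6* locus averaged 0.830 ± 0.422 CPM in KO NPCs and 0.977 ± 1.46 CPM in WT NPCs (SD, n = 3 each), a log2 fold change of -0.24 (-3.23 to 2.76). The *Hoxc4* to *Hoxc10* locus averaged 0.283 ± 0.128 CPM in KO NPCs and 0.319 ± 0.268 CPM in WT NPCs (SD, n = 3 each), a log2 fold change of -0.18 (-1.92 to 1.57). The intervals of these 5 loci hold 0, and also fold changes of more than 2 in each direction, so equal levels are not shown either.

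**Figure D4:**
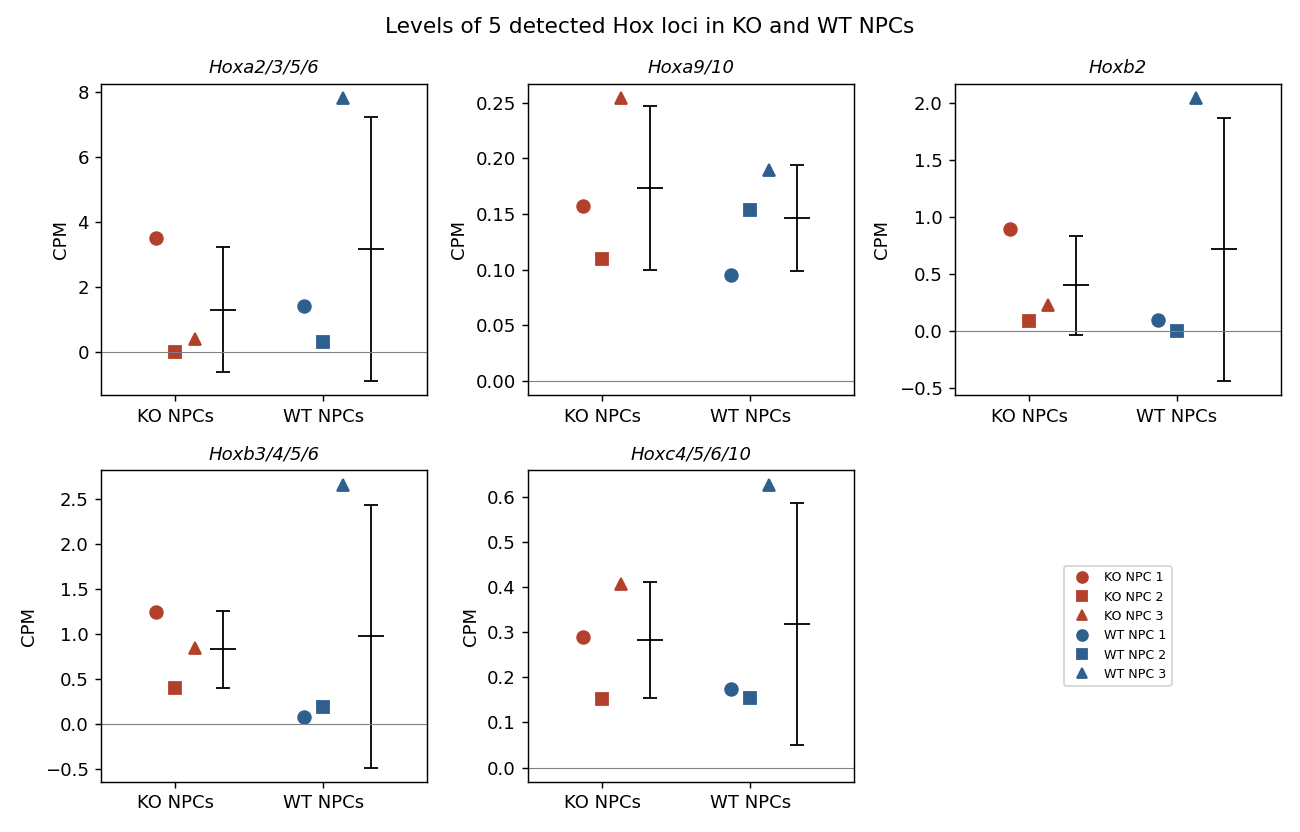
CPM of 5 detected *Hox* loci in KO NPCs (left of each panel, red) and WT NPCs (right, blue), with a symbol per replicate number and the mean with its SD (n = 3) as a black bar. The groups overlap in all 5 panels, and WT NPC 3 is the highest library in 4 of them.

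In edgeR's quasi-likelihood fit of the whole table, with p-values adjusted over the 19073 genes tested, adjusted p was between 0.983 and 0.986 at the 6 loci and 0 of 6 were called, against 0% of all genes. At an unadjusted p under 0.05 it was 0 of 6, against 1.61% of all genes. *Armc5* itself, with a log2 fold change of -4.68, had an adjusted p of 0.0864 in this test. By edgeR's likelihood ratio test 0 of 6 were called, against 0.0891% of all genes, and by DESeq2 0 of 6, against 0.184%. The CPM ranges of KO and WT NPCs overlapped at all 6 loci, and did not overlap for 6.02% of all genes. The median log2 fold change of the 6 loci was -0.21, beside -0.01 over all genes tested.

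The direction at each of these 5 loci turned under some setting. Replicate numbers were taken to pair the cultures. Within them the *Hoxa2* to *Hoxa6* locus was higher in KO than in WT for number 1 and lower for numbers 2 and 3. *Hoxb2* and the *Hoxb3* to *Hoxb6* locus were higher for numbers 1 and 2 and lower for number 3. A block for the number left 0 of 6 loci called by edgeR's quasi-likelihood test, against 0 of 19073 genes. At an unadjusted p under 0.05 in that test it was 0 of 6, against 391 genes. With the replicate number as a block the log2 fold changes were 0.97 for *Hoxb2*, 0.94 for the *Hoxb3* to *Hoxb6* locus and 0.01 for the *Hoxc4* to *Hoxc10* locus, each opposite in sign to the fit without it. At the *Hoxa2* to *Hoxa6* locus the block moved the log2 fold change further from 0, to -2.31 (unadjusted p 0.217, adjusted p 0.968 by edgeR's quasi-likelihood test), against -1.27 without the block. WT NPC 3 had the most weight: without it the log2 fold change was 0.61 at the *Hoxa2* to *Hoxa6* locus, 0.77 at the *Hoxc4* to *Hoxc10* locus, 3.06 at *Hoxb2* and 2.57 at the *Hoxb3* to *Hoxb6* locus, where the unadjusted p was 0.0215 and the adjusted p 1.00. Without KO NPC 2 the *Hoxb3* to *Hoxb6* locus had a log2 fold change of 0.14 and the *Hoxc4* to *Hoxc10* locus 0.15, and without KO NPC 3 the *Hoxa9* and *Hoxa10* locus had -0.13.

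**Figure D5:**
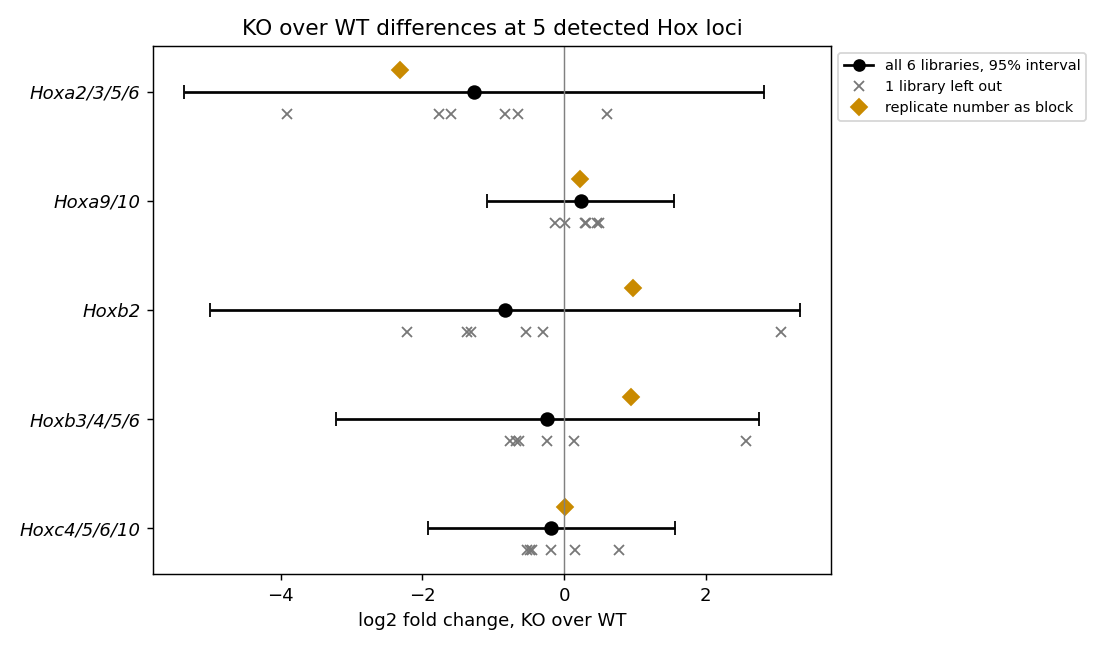
Log2 fold change, KO over WT, of 5 detected *Hox* loci with all 6 libraries (black, 95% interval), with 1 library left out (grey crosses) and with the replicate number as a block (orange). Every interval crosses 0, and at each locus at least 1 cross or diamond lies on the other side of 0 from the black point.

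Most genes that act with or upstream of *Hox* genes were expressed in all 6 libraries, and none of those tested passed the test, which called 0 of all genes. The TALE homeodomain proteins bind DNA together with HOX proteins, and all 9 listed genes were above 1 CPM in every library. *Meis1* was at 129.8, 106.8 and 137.5 CPM in KO NPCs, against 112.6, 106.4 and 113.8 CPM in WT NPCs. *Meis1* varied by less than 2-fold between libraries, unlike the 3′ *Hoxa* and *Hoxb* loci. It does not stand for the whole list: *Meis2* ran from 114.3 CPM in WT NPC 1 to 337.5 CPM in KO NPC 3. By edgeR's quasi-likelihood test 0 of 9 were called, with a median log2 fold change of 0.10.

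Polycomb repressive complexes place and read the histone marks of silent *Hox* clusters. All 30 listed subunits were above 1 CPM in every library and 0 were called (median log2 fold change -0.02). *Ezh2*, the methyltransferase of Polycomb repressive complex 2, was at 145.5, 135.5 and 61.4 CPM in KO NPCs, against 125.5, 132.7 and 126.6 CPM in WT NPCs, with KO NPC 3 lowest. Among 19 activators of *Hox* transcription, 16 were tested and 0 were called (median -0.01), and the 3 not tested are the *Cdx* genes near 0. They include *Kmt2a*, the histone methyltransferase that keeps *Hox* genes active, at 161.4, 183.8 and 255.7 CPM in KO NPCs, against 185.9, 203.7 and 220.9 CPM in WT NPCs. *Rarb*, a retinoic acid receptor whose own gene responds to retinoic acid, was at 4.58, 2.32 and 1.90 CPM in KO NPCs, against 6.21, 1.5 and 2.16 CPM in WT NPCs. It was highest in the 2 libraries numbered 1, which were not the 2 highest in *Hox* transcripts.

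Among other homeobox genes that lie in pairs or small clusters, *Dlx1* was compared with the *Hox* loci in its order over the libraries. Of 9 such genes from the *Dlx*, *Gsx*, *Pdx1* and *Cdx2* groups, 5 were tested and 0 were called, with *Dlx2* and *Dlx1* the highest by mean. *Dlx1* was at 0.724, 2.60 and 35 CPM in KO NPCs, against 0.0475, 3.20 and 19.7 CPM in WT NPCs. Its order over the libraries, with both libraries numbered 1 lowest and both numbered 3 highest, was not that of the 3′ *Hox* loci. The summed *Hox* traces did have this order, with 30, 44 and 139 counts in KO NPCs, against 7, 44 and 194 counts in WT NPCs.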

How the data were processed

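Total RNA from 3 KO and 3 WT neurosphere cultures was depleted of rRNA and made into strand-specific libraries, which were sequenced in paired-end mode for 2 x 100 cycles. The tools named in the submitters' processing notes, with no versions, are edgeR, StringTie, Picard, STAR and Trimmomatic, and the build is GRCm38. The deposited expected counts, whole numbers per locus of a merged assembly, were taken as they stand. Their low values rise in steps of about 2.75, and no source used here gives the authors' counting step. The authors also deposited log2 CPM and log2 values relative to *Rn7sk*, which were checked and set aside.

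The 53103 loci with a gene name were collapsed by reference gene into 53060 genes or merged loci. The other 6596 loci, left out of tests and library sizes, held 1.31% to 4.89% of the counts of a library. Genes were filtered with filterByExpr (minimum count 10, minimum total 15), scaled by TMM and tested by the quasi-likelihood method of edgeR, with no block, over all 19073 genes passing, with Benjamini-Hochberg adjustment and a threshold of 0.05. The fit was tested on simulated counts. Libraries sharing a replicate number deviated together (r = 0.413, 0.169 and 0.195 for numbers 1, 2 and 3, at most 0.0579 for other pairs). The numbers were therefore taken to pair the cultures, which the study also compared in pairs. The main fit, its intervals and its p-values leave this pairing out. The labels do not say more of the cultures' origin, so p-values measure the spread between these libraries. Members and gene lists were chosen with earlier results of these data known. Members that passed the filter or had 10 or more counts in a library were given with counts per library, the others by cluster and range, and values of some genes are not reported here. From other lists high genes by mean CPM and those that define a region were named. Alternatives were other scalings (*Rn7sk*, total counts), filters, edgeR's likelihood ratio test, DESeq2, the replicate block and each library left out. Added after seeing the data were both libraries numbered 3 left out and an unadjusted p. Versions were DESeq2 1.42.0, limma 3.58.1, edgeR 4.0.16 and R 4.3.3.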

Additional observations from a re-analysis of the deposited data

How the results depend on the processing

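No setting called a *Hox* locus at an adjusted p under 0.05. The number of detected loci was 1 with a CPM of at least 1 in 3 libraries, 15 with 10 counts in 1 library, 1 with 10 counts in all libraries and 2 when loci naming another gene were left out. It was 6 to 10 with 1 library left out. The log2 fold change turned to -0.04 at *Hoxa9* and *Hoxa10* with *Rn7sk* scaling. With the replicate block it turned to 0.97 at *Hoxb2*, 0.94 at *Hoxb3* to *Hoxb6* and 0.01 at *Hoxc4* to *Hoxc10*, and it was -2.31 at *Hoxa2* to *Hoxa6*. With the block and the likelihood ratio test it was -2.64 at *Hoxa2* to *Hoxa6* (unadjusted p 0.0773, adjusted p 1), 1.75 at *Hoxb2* and 1.02 at *Hoxb3* to *Hoxb6*. Without both libraries numbered 3 it was 1.04 at *Hoxa2* to *Hoxa6*, 2.55 at *Hoxb3* to *Hoxb6* and 0.42 at *Hoxc4* to *Hoxc10*. With 1 library left out it ran from -3.92 to 0.61 at *Hoxa2* to *Hoxa6*, -0.13 to 0.50 at *Hoxa9* and *Hoxa10*, -2.22 to 3.06 at *Hoxb2*, -0.76 to 2.57 at *Hoxb3* to *Hoxb6* and -0.52 to 0.77 at *Hoxc4* to *Hoxc10*. The cause of these turns was not tested. Over all genes, 0 were called by the quasi-likelihood test, 4 with *Rn7sk* scaling, 5 without a filter, 17 by the likelihood ratio test, 35 by DESeq2 and 38 by the likelihood ratio test with the block. *Rn7sk* scaling moved the median log2 fold change of all genes to -0.26. Counts of a few fragments limit every *Hox* value given here, and merged loci keep single genes from being read.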
